A study of Mus musculus with 24 samples.

Results

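The genes described here are 4 markers of type A intercalated cells, Slc4a1, Aqp6, Kit and Slc26a7. They were chosen by gene name among the 54393 genes of the deposited read tables, with earlier results of these data known. All 4 had reads in every library and passed the low-count filter of every comparison. The RNA came from the whole embryonic kidney of mice at embryonic day 18.5, in 24 bulk RNA-seq libraries from 3 mouse lines. The study addressed what Dmrt2, Hmx2 and Hmx3 do in the development of intercalated cell subtypes. The Dmrt2 line had 3 Dmrt2 KO libraries and 3 Dmrt2 Control libraries. The Hmx2/Hmx3 line had 6 Hmx3; Hmx2 KO libraries and 6 Hmx3; Hmx2 control libraries. The Dmrt2/Hmx2/Hmx3 line had 3 libraries labelled Dmrt2; Hmx3; Hmx2 KO, called triple knockout below, and 3 controls. Controls were littermates of the knockouts. The labels describe neither the alleles nor the genotype of the controls, and they do not state that each library came from a separate embryo. P-values therefore measure the spread between these libraries, which may in part be technical.

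Intercalated cells move acid and base across the collecting duct, where they lie scattered among the principal cells that take up water and sodium. Type A cells pump protons into the urine through a vacuolar proton pump on their luminal side and return bicarbonate to the blood through a chloride-bicarbonate exchanger on the opposite side, whereas the other intercalated types, B and non-A non-B, carry the luminal exchanger pendrin. Slc4a1 encodes that type A exchanger, AE1, which is also the band 3 protein of red blood cells. Slc26a7 encodes another chloride-bicarbonate exchanger of the basolateral membrane. Aqp6 encodes an aquaporin that sits in intracellular vesicles of type A cells and conducts anions. Kit encodes the receptor tyrosine kinase for stem cell factor and is known from mast cells, melanocytes and germ cells as well as from type A cells.

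On the mm39 build of the tables, Slc4a1 lies on chromosome 11 from 102239650 to 102257029 on the minus strand, and reads were summed over 25 merged exons of 4891 bases. Aqp6 lies on chromosome 15 from 99499281 to 99503358 on the plus strand, with 4 merged exons of 2423 bases. Its neighbours there are the other aquaporin genes Aqp2 (99476936 to 99482428) and Aqp5 (99488663 to 99492710). Kit lies on chromosome 5 from 75735576 to 75817382 on the plus strand, with 21 merged exons of 8911 bases, and Slc26a7 on chromosome 4 from 14502430 to 14621805 on the minus strand, with 20 merged exons of 5431 bases. No exon of another listed gene overlapped those of the 4 genes. Summing by gene name joins the kidney and the red-cell transcripts of Slc4a1, which start from different promoters.

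The promoters of Aqp6 and Kit are shown because no others were available. RefSeq's table on GRCm38.p6 held a window for 2 of the 4 members, Aqp6 and Kit, and none for Slc4a1 and Slc26a7. Among the members called lower in Dmrt2 knockouts, Aqp6 fell the most and Kit the least. Kit had 2 windows listed, and the first is shown. The 250 bases before the listed start follow, 5′ to 3′, from chr15:99600950-99601199 (plus strand) and chr5:75574737-75574986 (plus strand).
Aqp6: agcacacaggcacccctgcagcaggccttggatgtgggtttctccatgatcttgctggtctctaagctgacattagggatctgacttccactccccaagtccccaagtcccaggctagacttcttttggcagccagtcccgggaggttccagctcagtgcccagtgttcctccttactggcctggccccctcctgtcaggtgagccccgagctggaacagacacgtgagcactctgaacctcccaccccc
Kit: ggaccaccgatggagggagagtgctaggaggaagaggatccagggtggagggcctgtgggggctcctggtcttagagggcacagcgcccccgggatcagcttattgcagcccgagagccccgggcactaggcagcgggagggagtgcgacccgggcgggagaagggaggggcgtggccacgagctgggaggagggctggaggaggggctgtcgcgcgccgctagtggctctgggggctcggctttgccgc
Both windows are rich in G and C, at 59.6% for Aqp6 and 70.8% for Kit. Letters matching a motif would have been capitals, and there are none. Neither window held TGTTTA, a core of forkhead sites such as those of Foxi1, CAAGTG, a core of HMX sites, or ACATTGT, a core of DMRT sites, on either strand. No motif contains another. Of 27025 promoter windows of the same length, 3251 held TGTTTA, 3140 (11.6%) held CAAGTG and 698 (2.6%) held ACATTGT. The absence of a match says only that these letters are not in these windows.

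Libraries held 52286824 to 127339273 counted reads. Levels are given in CPM, the usual scale of read counts relative to the library total, here with TMM-scaled totals, on a single scale for the 24 libraries. The summed level of 4 Y-linked genes was 140 CPM or more in replicate 1 of the Dmrt2 knockouts, which makes 1 of 3, and in 3 of 3 controls, in 2 of 6 Hmx3 Hmx2 knockouts and 4 of 6 controls, and in 2 of 3 triple knockouts (1 and 3) and 2 of 3 controls (2 and 3). It was 0.515 CPM or less in the other libraries. Dmrt2 itself stood at 1.56 to 2.26 CPM in Dmrt2 knockouts against 12.2 to 14.9 CPM in their controls. In the libraries labelled triple knockout it stood at 17.7 to 19.2 CPM, against 10.7 to 12.1 CPM in controls, so the counts go against the Dmrt2 part of that label as a loss of transcript, and each direction drawn from these libraries rests on their label. In Hmx3 Hmx2 knockouts Dmrt2 stood at 9.5 to 12.9 CPM, against 7.96 to 10.1 CPM in their controls, and the groups overlapped. Hmx2 had 8 reads over the 6 Hmx3 Hmx2 knockouts against 807 over their controls, and 2 against 872 in the triple comparison.

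In the 12 control kidneys all 4 genes were readily detected. Per kilobase of exon, which is the scale that allows genes to be compared, the median control level was 5.86 CPM for Kit, 5.43 for Aqp6, 3.71 for Slc4a1 and 1.98 for Slc26a7. The members differed in how much they varied between control libraries. The highest control had 2.25 times the CPM of the lowest for Aqp6 (8.82 to 19.9 CPM), against 1.34 times for Slc4a1 (15.5 to 20.7), 1.31 times for Slc26a7 (8.97 to 11.8) and 1.24 times for Kit (48.2 to 59.9). Adgrf5, an adhesion receptor gene that completes the type A list, stood at 153 ± 12.4 CPM in Dmrt2 controls (SD, n = 3). Its mean there was 16.9 CPM per kilobase of exon, and the part of other kidney cells in its level was not tested.

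The order of the 6 groups differed between the genes, as the plot of levels by library shows. For Slc4a1 the mean ran from 22.6 CPM in Hmx3 Hmx2 knockouts over 18.7 in their controls, 17.8 in triple controls and 16.9 in Dmrt2 controls to 7.28 in triple knockouts and 3.71 in Dmrt2 knockouts. The first 4 of these overlapped their neighbours, and both lower groups stood apart from the rest and from each other. For Aqp6 the lowest groups were the same, with 6.52 CPM in triple knockouts and 0.786 in Dmrt2 knockouts, while the other 4 overlapped between 12.2 and 17.1 CPM. For Kit, Dmrt2 knockouts alone stood apart at 36.6 CPM, below the 50.2 to 60.1 CPM of the other group means. For Slc26a7 the order was 11.4 CPM in Hmx3 Hmx2 knockouts and in triple controls, 10.8 in Hmx3 Hmx2 controls, 9.07 in Dmrt2 controls, 8.73 in triple knockouts and 7.56 in Dmrt2 knockouts. The controls of the Hmx3 Hmx2 line did not overlap those of the Dmrt2 line, nor did the 2 lowest groups overlap each other, so the levels of Slc26a7 were also apart between controls of different lines, a difference that was not tested.

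**Figure D1:**
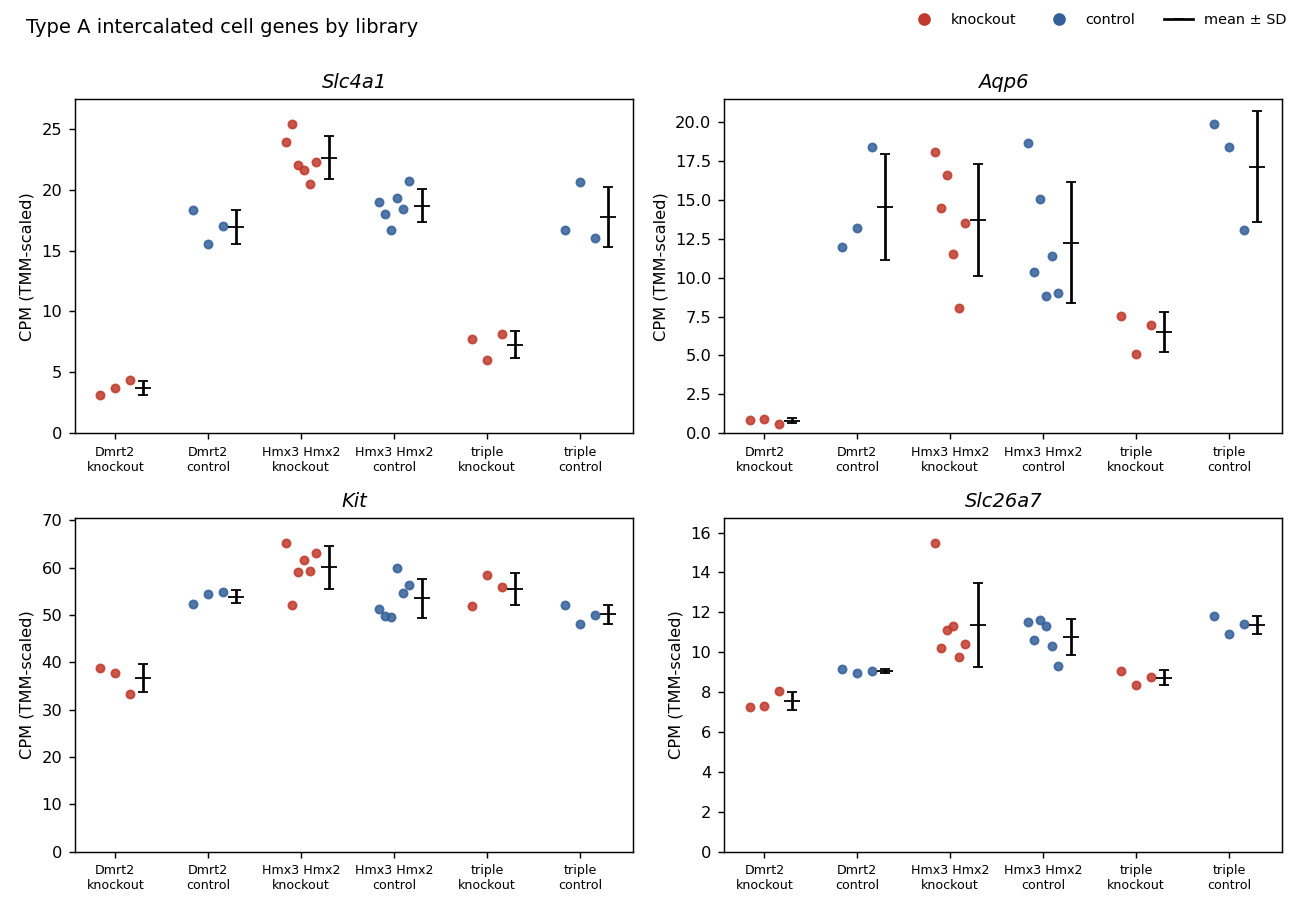
Level of each gene in each of the 24 libraries, in TMM-scaled CPM on a linear axis, by group, with knockouts in red, controls in blue, and the group mean and SD beside the points. Slc4a1 and Aqp6 lie lowest in Dmrt2 knockouts (3.13 to 4.33 and 0.61 to 0.909 CPM) and next lowest in triple knockouts (5.99 to 8.12 and 5.07 to 7.53 CPM), whereas Kit is low in Dmrt2 knockouts alone.

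Dmrt2 knockouts were set against their littermates first. Of the 4 members, Aqp6, Slc4a1 and Kit fell and Slc26a7 did not pass the test. A gene is called when its adjusted p is under 0.05 (edgeR's quasi-likelihood test over all genes, Benjamini-Hochberg adjustment), and 3 of 4 members were called lower where 0.257% of the 19807 genes tested were. In whole-kidney RNA, fewer cells of a type and less RNA per cell cannot be told apart. Aqp6 had 0.84, 0.909 and 0.61 CPM in Dmrt2 knockouts, against 12, 13.2 and 18.4 CPM in controls. The knockout kidneys thus held a small remainder, 56 to 78 reads a library and 5.4% of the control mean (0.786 ± 0.156 against 14.6 ± 3.4 CPM, SD, n = 3 each). The log2 fold change was −4.24 ± 0.21 (SE), with an adjusted p of 1.49e-06.

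Slc4a1, the exchanger itself, had 3.13, 3.67 and 4.33 CPM in Dmrt2 knockouts, against 18.3, 15.5 and 17.0 CPM in controls. The groups were far apart, with the knockouts at 21.9% of the control mean (3.71 ± 0.604 against 16.9 ± 1.45 CPM). The log2 fold change was −2.19 ± 0.13 (SE), with an adjusted p of 2.43e-06. Kit, the receptor, had 38.8, 37.8 and 33.3 CPM in knockouts, against 52.3, 54.5 and 54.9 CPM in controls. It fell by less than the other called members, to 68.0% of the control mean (36.6 ± 2.93 against 53.9 ± 1.39 CPM), with a log2 fold change of −0.56 ± 0.07 (SE) and an adjusted p of 0.00229. With Y-linked expression as a covariate the call of Kit ended (−0.47, adjusted p = 0.236). The knockout library with high Y-linked levels had the highest Kit level of the knockouts, 38.8 CPM, below all 3 controls, whose Y-linked levels were high too, and the part of sex in the result was not tested further.

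Slc26a7, the other exchanger, had 7.27, 7.33 and 8.07 CPM in Dmrt2 knockouts, against 9.17, 8.97 and 9.07 CPM in controls. All 3 knockouts lay below all 3 controls, at 83.3% of their mean (7.56 ± 0.446 against 9.07 ± 0.0994 CPM), but the log2 fold change of −0.26 ± 0.10 (SE) had an adjusted p of 0.325. The knockouts lay below the controls without overlap for 4 of 4 members, as they did for 7.71% of the genes tested. Over all genes 88 were called (0.444%). This count was 26 with knockout replicate 2 left out, 195 with control 1 left out and 53 with control 3 left out. Aqp6, Slc4a1 and Kit were called in each of these leave-one-out fits.

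In the Hmx3 Hmx2 line none of the 4 members passed the test, and each had a log2 fold change above 0. With edgeR 4 of 19050 genes were called (0.021%), 3 of them lower (0.0157%), with DESeq2 5, and 940 genes had an unadjusted p under 0.05. Slc4a1 had a lowest, median and highest level of 20.5, 22.2 and 25.4 CPM in Hmx3 Hmx2 knockouts, against 16.7, 18.7 and 20.7 CPM in controls. The groups overlapped only where the lowest knockout met the highest control (22.6 ± 1.78 against 18.7 ± 1.34 CPM, SD, n = 6 each), and the log2 fold change was 0.28 ± 0.06 (SE; adjusted p = 0.764, unadjusted p = 0.000437). Within replicates 1 to 3, which were deposited in a table of their own, Slc4a1 averaged 23.8 CPM in knockouts and 17.9 CPM in controls. Within replicates 4 to 6 it averaged 21.5 and 19.5 CPM, so the difference had the same direction in both tables.

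Kit had 52.2, 60.5 and 65.3 CPM as the lowest, median and highest of the Hmx3 Hmx2 knockouts, against 49.6, 53.0 and 59.9 CPM in controls (log2 fold change 0.17 ± 0.05, adjusted p = 0.944). It was higher in knockouts within both tables, at 58.9 against 50.2 CPM and at 61.4 against 57 CPM. Aqp6 had 8.04, 14 and 18.1 CPM in knockouts, against 8.82, 10.9 and 18.7 CPM in controls (0.16 ± 0.16, adjusted p = 0.962). For this gene the tables differed more than the groups, with 16.4 and 14.7 CPM in knockouts and controls of replicates 1 to 3, and 11 and 9.75 CPM in those of replicates 4 to 6. Slc26a7 had 9.74, 10.8 and 15.5 CPM in knockouts, against 9.29, 10.9 and 11.6 CPM in controls (0.07 ± 0.09, adjusted p = 0.969). Its direction rested on knockout replicate 1, without which the log2 fold change was −0.02. The groups overlapped for 4 of 4 members, and over all genes the knockouts lay below the controls without overlap for 0.0577% and above them for 0.021%.

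In the libraries labelled triple knockout Slc4a1 and Aqp6 fell relative to controls, and Kit and Slc26a7 did not pass the test. The 2 of 4 members called lower compare with 0.446% of the 21537 genes tested. Slc4a1 had 7.73, 5.99 and 8.12 CPM in triple knockouts, against 16.7, 20.6 and 16.0 CPM in controls. The knockouts stood at 41.0% of the control mean (7.28 ± 1.13 against 17.8 ± 2.51 CPM, SD, n = 3 each), with a log2 fold change of −1.28 ± 0.13 (SE) and an adjusted p of 0.00407. Aqp6 had 7.53, 5.07 and 6.97 CPM in triple knockouts, against 19.9, 18.4 and 13.1 CPM in controls. It stood at 38.1% of the control mean (6.52 ± 1.29 against 17.1 ± 3.56 CPM), with a log2 fold change of −1.39 ± 0.20 (SE) and an adjusted p of 0.0334. This call ended without knockout replicate 3 (adjusted p = 0.144), control replicate 1 (0.0546) or control replicate 2 (0.105), and with Y-linked expression as a covariate (0.0505), while the log2 fold change stayed between −1.55 and −1.24. The triple knockouts with high Y-linked levels, at 7.53 and 6.97 CPM of Aqp6, lay below the controls of that kind, at 18.4 and 13.1 CPM, and the knockout with low Y-linked levels, at 5.07 CPM, lay below the control of that kind, at 19.9 CPM.

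Slc26a7 had 9.08, 8.35 and 8.75 CPM in triple knockouts, against 11.8, 10.9 and 11.4 CPM in controls. Its groups did not overlap, and the knockouts stood at 76.8% of the control mean (8.73 ± 0.364 against 11.4 ± 0.459 CPM). The log2 fold change of −0.38 ± 0.09 (SE) had an adjusted p of 0.064 with edgeR, 0.00592 with DESeq2 and 0.0132 without a low-count filter. Kit had 51.9, 58.5 and 56.0 CPM in triple knockouts, against 52.2, 48.2 and 50.1 CPM in controls. Here the groups overlapped, and the log2 fold change was 0.15 ± 0.06 (SE), with an adjusted p of 0.218. Triple knockouts lay below controls without overlap for 3 of 4 members, as they did for 12.9% of the genes tested. Over all genes 222 were called (1.03%). Leaving out a library gave 96 (knockout 2), 20 (knockout 3), 145 (control 1), 84 (control 2) and 438 (control 3).

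**Figure D2:**
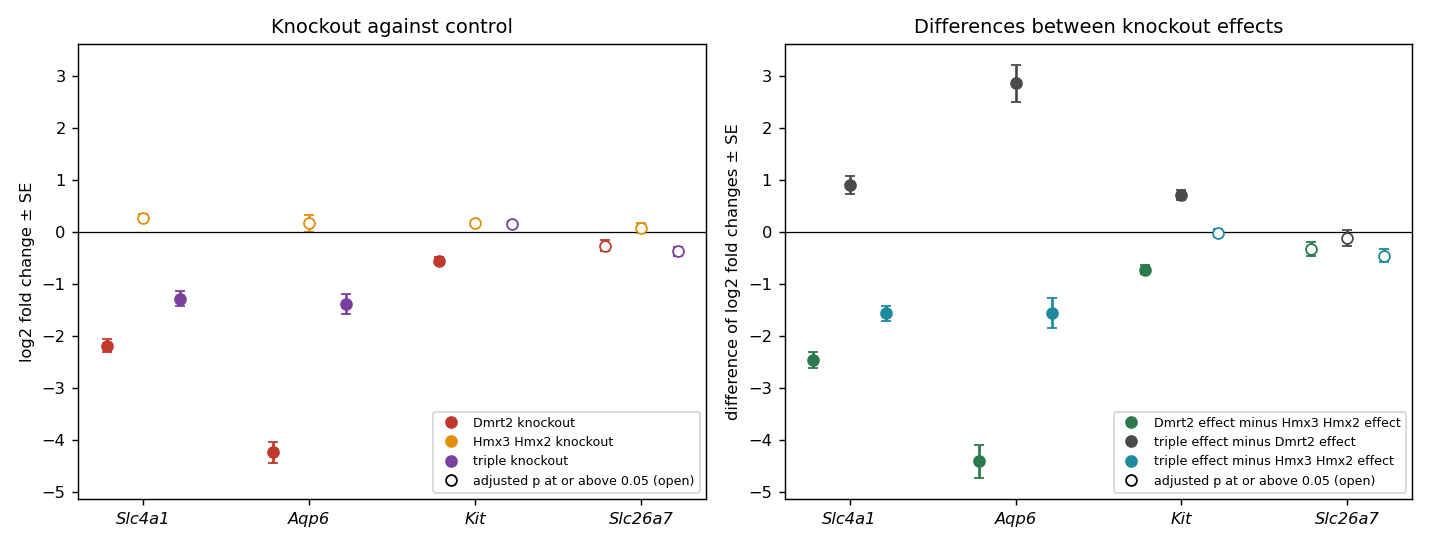
Left, log2 fold change of each gene in each knockout against the controls of its own line, and right, differences between those fold changes from the fit of all 24 libraries, with bars of 1 SE and open points for an adjusted p at or above 0.05. Aqp6 has the lowest fold change in the Dmrt2 comparison (−4.24), and its difference between the triple and the Dmrt2 effect is 2.85.

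Whether the effects themselves differed between the lines was tested by fitting all 24 libraries together, in a model in which each effect is relative to the controls of its own table. The Dmrt2 effect was lower than the Hmx3 Hmx2 effect for Aqp6 (difference of log2 fold changes −4.41 ± 0.32 SE, adjusted p = 1.43e-07), Slc4a1 (−2.46 ± 0.15, adjusted p = 3.12e-11) and Kit (−0.73 ± 0.08, adjusted p = 7.28e-06). Of 22101 genes 0.127% were called lower in this contrast. For Slc26a7 the difference did not pass (−0.34 ± 0.13, adjusted p = 0.53).

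The effects on the same 3 members were higher in the libraries labelled triple knockout than in Dmrt2 knockouts. Slc4a1 and Aqp6 were less reduced there, and the mean of Kit lay above that of its controls, with overlap. The triple effect minus the Dmrt2 effect was 2.85 ± 0.36 (SE) for Aqp6 (adjusted p = 0.000514), 0.90 ± 0.17 for Slc4a1 (adjusted p = 0.0111) and 0.70 ± 0.09 for Kit (adjusted p = 0.000263), where 0.24% of genes were called higher. For Slc26a7 it was −0.12 ± 0.15 (adjusted p = 0.828). Dmrt2 transcript was high in the triple knockouts and low in the Dmrt2 knockouts, as given above. Hmx2 went the other way, with 2 reads over the triple knockouts. In Dmrt2 knockouts Hmx2 was called higher, at 14.1 ± 0.313 CPM against 4.05 ± 0.854 CPM in controls (log2 fold change 1.80 ± 0.14, adjusted p = 2.95e-05). The part of either transcript in the differences was not tested. Against the Hmx3 Hmx2 effect, the triple effect was lower for Slc4a1 (−1.56 ± 0.14, adjusted p = 7.03e-07) and Aqp6 (−1.56 ± 0.28, adjusted p = 0.0103), where 0.344% of genes were called lower. It was not called for Kit (−0.02 ± 0.08, adjusted p = 0.937) or Slc26a7 (−0.46 ± 0.13, adjusted p = 0.0934).

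Aqp6 and Slc4a1 are both type A genes but did not fall by the same factor in Dmrt2 knockouts. The counts of Slc4a1 join kidney and red-cell transcripts, and the part of red-cell RNA in this difference was not tested. The ratio of Aqp6 to Slc4a1, each in CPM per kilobase of exon, was 0.542, 0.5 and 0.284 in Dmrt2 knockouts, against 1.32, 1.73 and 2.19 in controls. Aqp6 was thus below Slc4a1 in all 3 knockout libraries and above it in all 3 controls. In triple knockouts the ratio was 1.97, 1.71 and 1.73, against 2.41, 1.8 and 1.66 in controls, and the groups overlapped. In Hmx3 Hmx2 knockouts it ran from 0.794 to 1.53 with a median of 1.185, against 0.884 to 1.99 with a median of 1.21 in controls.

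**Figure D3:**
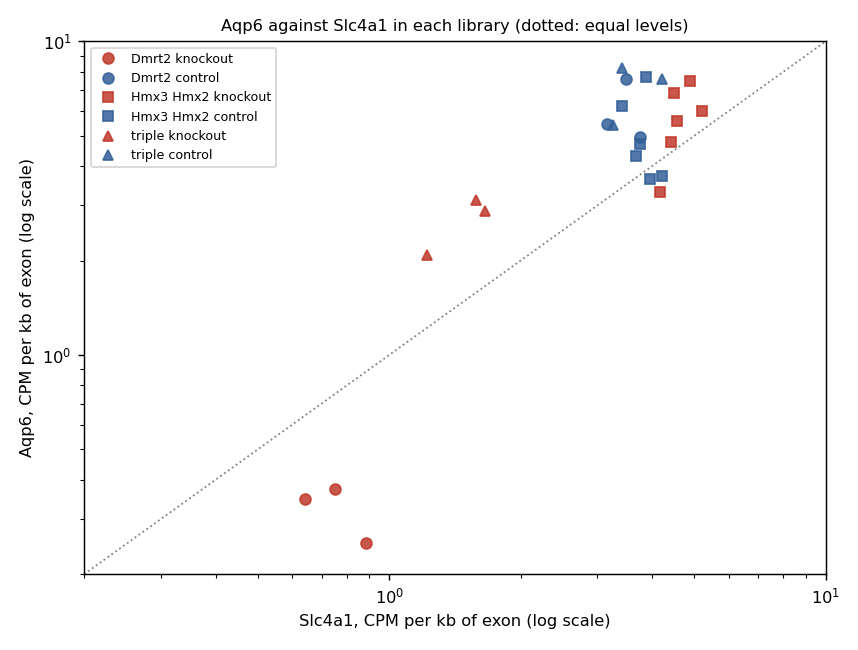
Aqp6 against Slc4a1 in each library, both in CPM per kilobase of exon on log axes, with red for knockouts, blue for controls, and circles, squares and triangles for the Dmrt2, Hmx3 Hmx2 and triple lines. The 3 Dmrt2 knockouts lie below the dotted line of equal levels (ratios 0.284 to 0.542), and the 3 triple knockouts lie above it (1.71 to 1.97) at lower levels of both genes than their controls.

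To set the members beside genes shared by all intercalated cells, each was divided in every library by the geometric mean of Foxi1, the transcription factor these cells need, Atp6v1b1, a proton pump subunit, and Tfcp2l1, another of their transcription factors. Whether these reference genes are confined to intercalated cells was not tested, so the ratio is not a level per intercalated cell. In Dmrt2 knockouts Foxi1 stood at 34.5 ± 1.68 CPM against 41.5 ± 3.84 CPM in controls, Atp6v1b1 at 84.3 ± 3.24 against 94.2 ± 1.39 CPM, and Tfcp2l1 at 324 ± 13.7 against 345 ± 19.9 CPM, and none was called. The log2 ratio of Aqp6 lay between −7.29 and −6.77 in Dmrt2 knockouts, against −3.15 to −2.66 in controls. That of Slc4a1 lay between −4.99 and −4.46, against −2.81 to −2.54, and that of Kit between −1.52 and −1.35, against −1.09 to −0.99. These 3 genes were thus lower relative to the shared genes in every knockout library than in any control, with mean differences of −4.03, −2.03 and −0.39. The ratio of Slc26a7 overlapped, with a mean difference of −0.09. With 3 libraries against 3 the exact permutation test, 2-sided, cannot go below p = 0.1, which is the p of these 3 genes (adjusted p = 0.2 over the 12 ratio tests).

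In triple knockouts the log2 ratio was lower in every library than in any control for Slc4a1, Aqp6 and Slc26a7, with mean differences of −1.34, −1.45 and −0.44 (exact permutation p = 0.1, adjusted p = 0.2 for each). For Kit the groups overlapped, with a mean difference of 0.09 (exact permutation p = 0.2, adjusted p = 0.3429). Among the reference genes Foxi1 stood at 43.2 ± 1.86 CPM in triple knockouts and 41.1 ± 1.18 CPM in controls. Atp6v1b1 stood at 106 ± 0.908 and 94.3 ± 8.93 CPM, and Tfcp2l1 at 486 ± 25.1 and 514 ± 29.1 CPM, and none was called. In Hmx3 Hmx2 knockouts all 4 ratios overlapped those of controls, with mean differences of 0.11 for Slc4a1, 0.007 for Aqp6, 0.001 for Kit and −0.10 for Slc26a7 (exact permutation p between 0.305 and 0.975, labels permuted within the tables). Relative to the shared genes the differences of Slc4a1 and Kit in that line were thus smaller than their log2 fold changes. Of those genes Foxi1 stood at 37.9 ± 2.21 CPM in knockouts and 33.2 ± 2.66 CPM in controls.

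**Figure D4:**
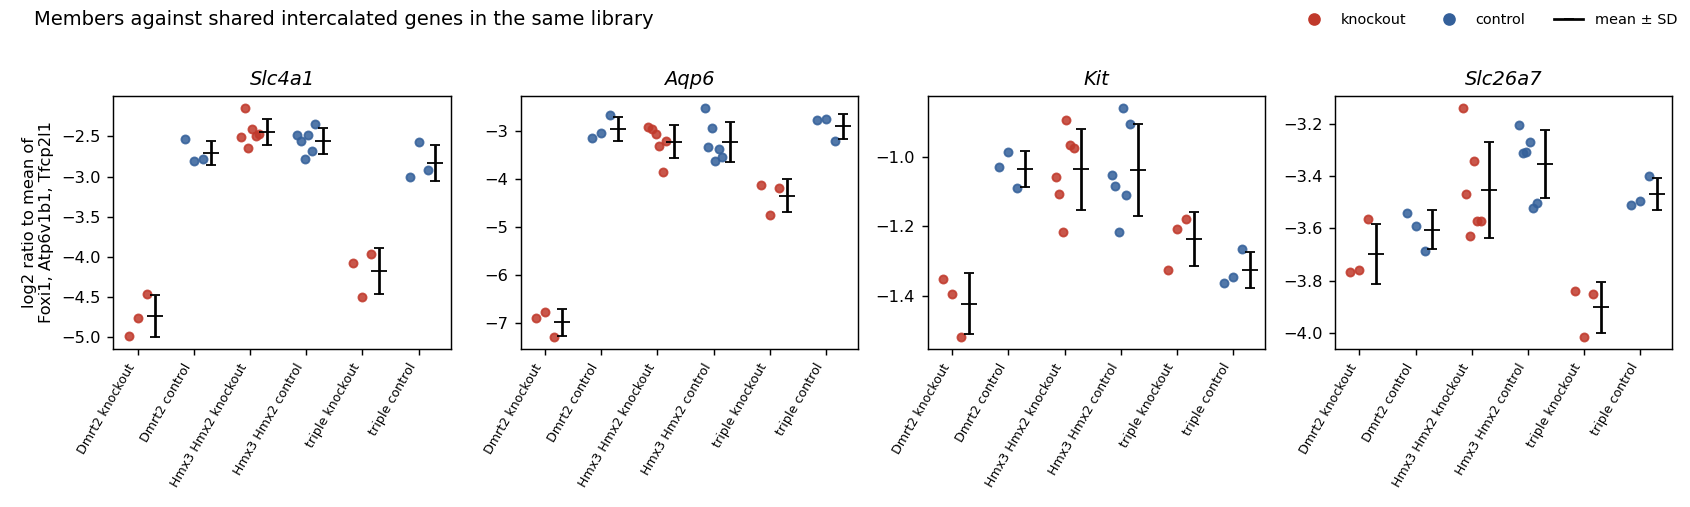
Log2 ratio of each gene to the geometric mean of Foxi1, Atp6v1b1 and Tfcp2l1 in the same library, by group, with knockouts in red, controls in blue, and the mean and SD beside the points (each panel has its own axis). Slc4a1 and Aqp6 stand lower in Dmrt2 and triple knockouts than in any control, Kit in Dmrt2 knockouts and Slc26a7 in triple knockouts relative to the controls of their own line.

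Slc4a1 is also a red-cell gene, so the erythroid list was read beside it. It holds 10 genes, 9 of which were tested, and 0 were called in each of the 3 comparisons. Their summed level was 1065.6 to 1223.9 CPM in Dmrt2 knockouts against 965 to 1314.5 CPM in controls, 894 to 1751.4 against 847 to 1885.9 CPM in the Hmx3 Hmx2 line, and 981 to 1382.4 against 912 to 1103.8 CPM in the triple line. These ranges overlapped in every line. Hbb-bs, a beta globin gene, stood at 337 ± 30.6 CPM in Dmrt2 knockouts and 349 ± 40.6 CPM in controls. Epb42, which encodes a protein of the red-cell membrane skeleton, stood at 3.69 ± 0.256 CPM in Dmrt2 knockouts and 3.07 ± 1.47 CPM in controls. Rhag had 8 reads over the 3 knockouts and 8 over the 3 controls. Ermap, a red-cell membrane protein gene named after its values were seen, was lower without overlap in both lines in which Slc4a1 fell. Over all genes tested this held for 7.71% in the Dmrt2 and 12.9% in the triple comparison. Ermap was at low levels and did not pass the test. It stood at 0.33 ± 0.16 CPM in Dmrt2 knockouts and 0.488 ± 0.024 CPM in controls (log2 fold change −0.55 ± 0.42, adjusted p = 0.647), and at 0.219 ± 0.119 CPM in triple knockouts and 0.641 ± 0.184 CPM in controls (−1.53 ± 0.45, adjusted p = 0.13). Of the 9 tested genes of the list, 3 had a log2 fold change below 0 in the Dmrt2 and 3 in the triple comparison. The list medians were 0.04 and 0.23. Hba-a2 and Alas2 were higher without overlap in triple knockouts, at 150 ± 43.1 against 98.6 ± 13.1 CPM and 22.4 ± 3.85 against 17.3 ± 1.31 CPM. The part of red cells in the Slc4a1 levels was not tested beyond these values.

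Kit marks mast cells too. The mast cell list holds 7 genes, of which 5 were tested in the Dmrt2 and Hmx3 Hmx2 comparisons and 6 in the triple comparison, and 0 were called. Fcer1a, the receptor subunit for immunoglobulin E, had 0 reads in all 24 libraries. Ms4a2, another gene of the list, stood at 3.54 ± 0.289 CPM in Dmrt2 knockouts and 3.27 ± 0.769 CPM in controls (log2 fold change 0.113 ± 0.185, adjusted p = 0.862). Of the 5 tested genes 3 had a log2 fold change below 0 in the Dmrt2 comparison, where 50.6% of all genes tested did. The mast cell protease gene Cpa3 stood at 0.919 ± 0.165 CPM in Dmrt2 knockouts and 0.955 ± 0.345 CPM in controls, and Tpsb2 at 0.753 ± 0.106 and 1.02 ± 0.37 CPM. The summed level of the list was 406 to 517 CPM in Dmrt2 knockouts and 325 to 390 CPM in controls, 216 to 303 and 255 to 333 CPM in the Hmx3 Hmx2 line, and 286 to 320 and 307 to 394 CPM in the triple line. Nearly all of it came from Hdc, the histidine decarboxylase gene, at 461 ± 56.3 CPM in Dmrt2 knockouts and 355 ± 31.8 CPM in controls (adjusted p = 0.161). Cma1, another mast cell protease gene, named after its values were seen, stood at 0.476 ± 0.239 CPM in Dmrt2 knockouts and 0.811 ± 0.164 CPM in controls (log2 fold change −0.73 ± 0.36, adjusted p = 0.442), and the groups overlapped. The part of mast cells in the Kit levels was not tested beyond these values. Kitl, which encodes the ligand of Kit, and the related receptor genes Pdgfra, Pdgfrb and Csf1r were not called in any comparison. Kitl stood at 50.5 ± 2.3 CPM in Dmrt2 knockouts and 47.6 ± 6.63 CPM in controls.

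Of 9 genes listed as partners of the type A pathway, which include the ammonia channel genes Rhcg and Rhbg, the carbonic anhydrase gene Car2 and Adgrf5, 0 passed the test in the Dmrt2, Hmx3 Hmx2 and triple comparisons, with medians of −0.09, 0.04 and −0.07 beside −0.002, −0.005 and 0.001 for all genes tested. In the Dmrt2 comparison Rhbg stood at 1.77 ± 0.252 against 3.24 ± 0.204 CPM (log2 fold change −0.87 ± 0.17, adjusted p = 0.0546), Car2 at 116 ± 2.86 against 151 ± 18.9 CPM (−0.39 ± 0.08, adjusted p = 0.0623) and Rhcg at 72.7 ± 4.89 against 77.3 ± 9.01 CPM (−0.09 ± 0.08, adjusted p = 0.728). Adgrf5 did not pass either, at 127 ± 5.8 CPM in Dmrt2 knockouts and 153 ± 12.4 CPM in controls (−0.27 ± 0.07, adjusted p = 0.107). Of the 9 genes, 6 had a log2 fold change below 0 in this comparison, where 50.6% of all genes tested did. Slc12a7 (0.185 ± 0.061, adjusted p = 0.243), Atp12a (0.256 ± 0.155, adjusted p = 0.547) and Atp4a (0.227 ± 0.225, adjusted p = 0.747) lay above 0. Slc12a7 stood at 89.2 ± 3.86 against 78.4 ± 4.61 CPM there, and at 105 ± 1.42 against 90.9 ± 4.92 CPM in the triple line.

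Of 8 genes shared by intercalated cells, 1 was called lower in Dmrt2 knockouts and in triple knockouts, where 0.257% and 0.446% of all genes were, and 0 were called in the Hmx3 Hmx2 line, where 0.021% of all genes were. That gene, Atp6v1g3, a subunit of the proton pump found in intercalated cells, had 7.81 ± 0.839 CPM in Dmrt2 knockouts and 13.2 ± 1.32 CPM in controls (log2 fold change −0.76 ± 0.11, adjusted p = 0.0153), and 10.6 ± 1.03 CPM in triple knockouts and 14.8 ± 0.886 CPM in controls (−0.48 ± 0.09, adjusted p = 0.0403). The list medians were −0.15, 0.17 and −0.07 in the Dmrt2, Hmx3 Hmx2 and triple comparisons. In Hmx3 Hmx2 knockouts 8 of 8 shared genes and 5 of 5 type A genes had a log2 fold change at or above 0, where 53.0% of all genes tested lay below 0.

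Genes of the other intercalated subtypes rose in the lines in which Slc4a1 and Aqp6 fell. Of 4 listed for type B or non-A non-B cells, 3 rose in Dmrt2 knockouts and in triple knockouts, where 0.187% and 0.585% of all genes were called higher. Slc26a4, the pendrin gene, had 16.2 ± 1.28 CPM in Dmrt2 knockouts and 4.53 ± 1.57 CPM in controls (1.84 ± 0.22, adjusted p = 0.0165), and 7.58 ± 0.0665 CPM in triple knockouts and 4.44 ± 0.235 CPM in controls (adjusted p = 0.00653). It fell in the Hmx3 Hmx2 line, where it had 1.48 ± 0.243 CPM in knockouts and 3.64 ± 0.615 CPM in controls (−1.31 ± 0.14, adjusted p = 0.000485) and none of the type A genes was called. Slc4a9, a basolateral exchanger of type B cells and a relative of Slc4a1, had 68.4 ± 6.22 CPM in Dmrt2 knockouts and 47.8 ± 1.55 CPM in controls (0.52 ± 0.07, adjusted p = 0.00584), and 86.3 ± 9.66 CPM in triple knockouts and 42.5 ± 4.89 CPM in controls (1.03 ± 0.10, adjusted p = 0.00653). Insrr, an alkali-sensing receptor gene, rose in both as well (0.61 and 1.12).

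**Figure D5:**
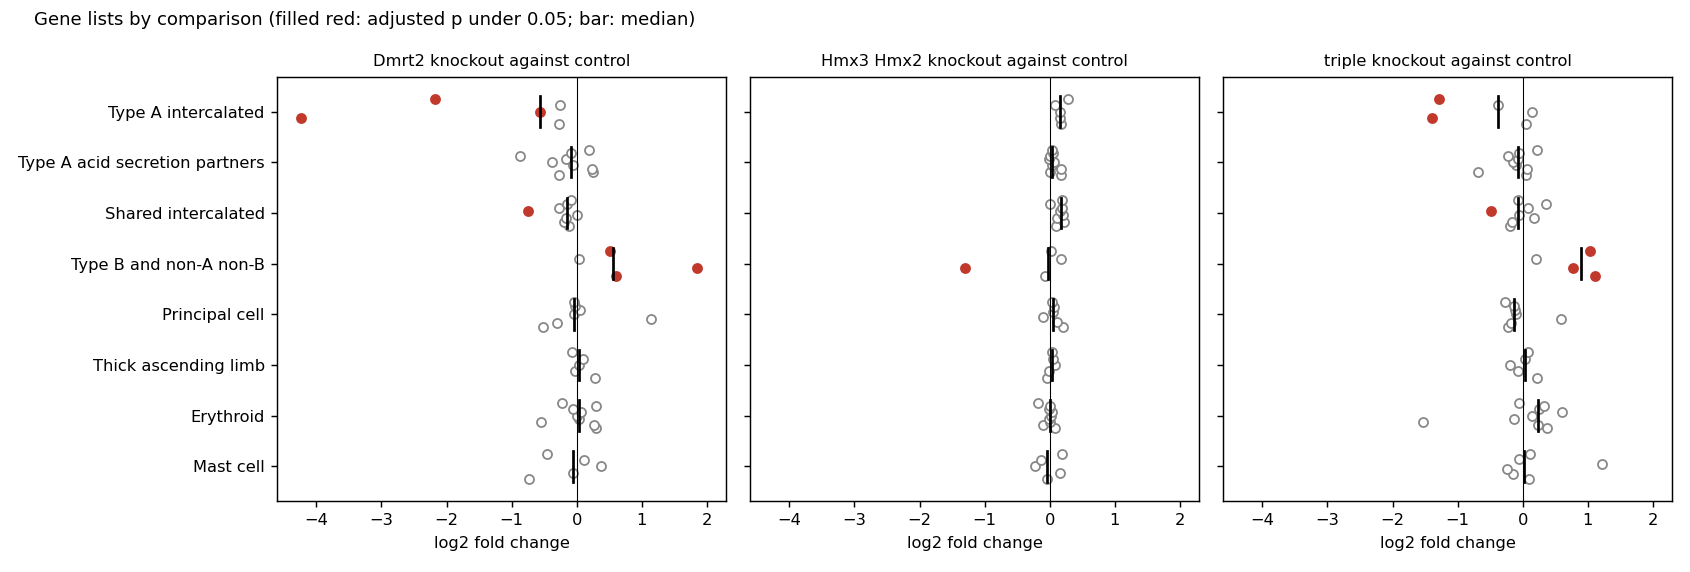
Log2 fold change of the tested genes of 8 lists in the Dmrt2, Hmx3 Hmx2 and triple comparisons, with filled red points for an adjusted p under 0.05, open grey points for the others and a bar at the median. Type A genes reach −4.24 in the Dmrt2 and −1.39 in the triple comparison, and erythroid, mast cell, principal cell and thick ascending limb lists hold no called gene.

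Few other genes of the members' families were called. Of 9 other aquaporin genes 8 were tested, and Aqp8 rose in triple knockouts, at 1.54 ± 0.129 CPM against 0.437 ± 0.0521 CPM in controls (1.81 ± 0.23, adjusted p = 0.00489), with no other call in any comparison. The neighbours of Aqp6 were not called: in the Dmrt2 comparison Aqp2, the water channel of principal cells, stood at 292 ± 11.4 CPM in knockouts and 420 ± 122 CPM in controls (−0.52 ± 0.21, adjusted p = 0.429), and Aqp5 at 1.86 ± 0.24 and 2.03 ± 0.443 CPM (−0.13 ± 0.21, adjusted p = 0.861). Of 9 other genes of the SLC4 family, Slc4a9 rose as given above and Slc4a3, another anion exchanger, rose in triple knockouts, at 55.4 ± 2.56 CPM against 42.7 ± 2.38 CPM in controls (0.38 ± 0.06, adjusted p = 0.0176). Of 8 tested genes of the SLC26 family besides Slc26a7, Slc26a4 was the gene called. Of 7 principal cell and 5 thick ascending limb genes, 0 were called in any comparison. The summed level of the principal cell list was nevertheless lower without overlap in both lines in which Slc4a1 and Aqp6 fell, at 605 to 659 CPM in Dmrt2 knockouts against 674 to 934 CPM in controls, and at 518 to 619 CPM in triple knockouts against 642 to 705 CPM in controls. In the Hmx3 Hmx2 line it was 546 to 775 CPM in knockouts against 561 to 706 CPM in controls. Aqp2, at the levels given above, was the largest part of this sum in the Dmrt2 line. Aqp2 was lower there without overlap, as was Aqp3. Scnn1b and Hsd11b2 overlapped there, at 97.9% and 103.0% of the control mean. The list median was −0.04 in the Dmrt2 and −0.13 in the triple comparison. Of all genes tested, 7.71% and 12.9% lay below controls without overlap in these comparisons. The summed level of the thick ascending limb list overlapped in all 3 lines, at 802 to 882 against 755 to 851 CPM in the Dmrt2 line. The part of these sums in the levels of the 4 genes was not tested.

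The genes whose pattern over the 24 libraries was most like that of each member were ranked among 22100 genes by the root mean square difference of log2 levels, each relative to the control mean of its own table. For Aqp6 the nearest gene was Slc4a1 (0.582), then Gm17936 (0.596) and Pck1, a gluconeogenesis enzyme gene (0.746). For Slc4a1 they were Pck1 (0.343), Tmem252 (0.379) and Gm4815 (0.45), and Aqp6 ranked 21. Mean deviations of Pck1 were −1.61 in Dmrt2 knockouts, 0.24 in Hmx3 Hmx2 knockouts and −1.04 in triple knockouts, against −2.06, 0.27 and −1.23 for Slc4a1. For Kit they were Asb15 (0.123), Adgrf5 (0.126) and Plcg2 (0.132), and for Slc26a7 Tuba4a (0.098), Ip6k3 (0.106) and Dusp14 (0.113). Kit and Slc26a7 moved so little that 16297 and 17826 genes lay within 0.3 of them, so nearness to these 2 genes says little. Kit and Slc26a7 lay at 0.742 and 0.735 from Slc4a1 and at 1.196 and 1.232 from Aqp6, but at 0.236 from each other.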

How the data were processed

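Poly(A)-selected RNA of whole embryonic kidneys was read at 150 bp, per the labels' protocols. The deposited values are counts of reads per gene in 4 tables, 2 of them for the Hmx3 Hmx2 line. The submitters' processing notes list fastp 0.20.1, STAR 2.7.0e, featureCounts 2.0.1 and the mm39 build, and the header lines give version 2.0.3 of featureCounts. Exons of a filtered GENCODE vM29 annotation were summed by gene name, per the file headers, with no strand option and with both reads of a pair counted, and 87.9% to 94.1% of counts from 1 to 19 were even. Exon lengths are those of the deposited tables. No sample label matched 2 of the columns, which were left out.

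The 4 genes and the gene lists were chosen with earlier results of these data known, and the lists are no independent evidence. Named are the members, the called genes of the lists, uncalled examples, and the 3 genes nearest in pattern to each member. The examples number at most 4 a list, except in the partner, erythroid and mast cell lists. Some examples were named after their values were seen. edgeR 4.0.16 (R 4.3.3) was run on all genes with TMM scaling, filterByExpr (minimum count 10, total 15) and its quasi-likelihood test with robust settings. P-values were adjusted by Benjamini-Hochberg with a threshold of 0.05. The deposited table was a term for the Hmx3 Hmx2 line and in the fit of 24 libraries. The SE is the absolute log2 fold change over the square root of F, and a positive value is higher in the knockout. The model fits were tested on simulated counts. Alternatives were DESeq2 1.42.0, other scaling and filters, a replicate block, a Y-linked covariate and leaving out each library. Library totals ran from 52286824 to 127339273 reads, and in 24 pairs, those of a group within a table, no 2 libraries agreed within sampling noise. Reads carry no molecular identifiers.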

Additional observations from a re-analysis of the deposited data

Results flagged for a closer look

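In Hmx3 Hmx2 knockouts 1 library, replicate 1, lay far above the other 5 for Slc26a7, at 15.5 CPM. Such a gap is met by chance in about 1 in 20 groups.

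The knockout effects of the members differed between lines by a test of the difference itself. The Dmrt2 effect was lower than the Hmx3 Hmx2 effect by −2.46 (log2) for Slc4a1, −4.41 for Aqp6 and −0.73 for Kit. The triple effect minus the Dmrt2 effect was 0.9 for Slc4a1, 2.85 for Aqp6 and 0.7 for Kit. The triple effect minus the Hmx3 Hmx2 effect was −1.56 for Slc4a1 and −1.56 for Aqp6.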

How the results depend on the processing

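In the Dmrt2 comparison Slc4a1 and Aqp6 were called in 13 of 13 alternatives and Kit in 12 of 13, the exception being the Y-linked covariate (−0.47). In the triple comparison Slc4a1 was called in 12 of 13 and Aqp6 in 8 of 13. Their log2 fold changes with the replicate block were −1.28 (adjusted p = 0.0509) and −1.38 (adjusted p = 0.0678), and that of Aqp6 was −1.4 with the Y-linked covariate and −1.55 to −1.24 with 1 library left out. Slc26a7 was called there with DESeq2 (−0.38) and without a filter (−0.38). In the Hmx3 Hmx2 comparison no member was called in 22 alternatives, and Slc26a7 ran from −0.02 to 0.12 with 1 library left out. There the ratios of Aqp6 and Kit to the shared genes were −0.02 and −0.02 with Foxi1 alone, and −0.07 to 0.15 and −0.03 to 0.04 with 1 library left out. The calls on differences between effects held in 3 of 3 alternatives for each member called. The count of called genes in the Dmrt2 comparison was 417 with DESeq2, 676 without a filter, 13 with the Y-linked covariate and 26 to 195 with 1 library left out. In the triple comparison it was 1021, 1510, 573 in the fit of 24 libraries, 51 with the replicate block and 20 to 438 with 1 library left out. In the Hmx3 Hmx2 comparison it was 2 with a minimum mean of 1 CPM, 2 in replicates 1 to 3 and 2 in replicates 4 to 6. The replicate numbers were not taken as pairs, since same-numbered libraries deviated together with correlations of 0.014 to 0.047, 0.006 to 0.133 and −0.143 to −0.011 in the Dmrt2, Hmx3 Hmx2 and triple lines. The causes of these changes were not tested.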
